A study of Mus musculus with 12 samples.

Results

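The comparison of low-dose penicillin with no antibiotic, averaged over both diets, took in 12 of the 12 liver arrays of the study: the 6 whose titles name low-dose penicillin against the 6 whose titles name control. All were livers of male C57BL6J mice collected at 30 weeks of age, with 1 array per mouse and 3 mice per group. Every mouse started on chow with 13.5% of its calories from fat, and the high-fat groups moved at 17 weeks to a diet with 45%. The penicillin groups drank water with 6.7 mg/L of the antibiotic and the control groups drank water without it. The 4 groups are called control and penicillin chow, for the mice that stayed on chow, and control and penicillin high-fat. The age at which penicillin was started or stopped, the cages and the litters were not used here. Diet stayed in the model as a factor, so the averaged effect is the mean of the penicillin minus control difference on chow and the same difference on the high-fat diet.

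Penicillin in drinking water acts on the gut bacteria, and the liver is the first organ that receives blood drained from the intestine, with its absorbed nutrients, bile acids and bacterial products. The hepatocyte makes up most of the liver's mass and handles lipid storage, bile acid synthesis and the clearance of foreign compounds. Several of these programmes in the mouse liver also differ between the sexes under control of growth hormone. The study's title places the work in the field of lasting metabolic effects of an altered microbiota.

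Levels below are log2 expression values from Affymetrix arrays, on which a probe set stands for a gene and a difference of log2 values is the log of a fold change. The hepatocyte markers had a median level of 14.11 and 13 of 13 lay above the level used to filter dim genes (log2 5.0), so the defining markers of the labelled tissue were present. The array medians lay between 5.52 and 5.59, and arrays of the same group correlated at 0.992 to 0.996 across all probe sets. The signal of the 18S ribosomal RNA control was low in 3 arrays, all with penicillin: 11.76 in penicillin chow 2, 11.77 in penicillin chow 3 and 11.81 in penicillin high-fat 2, against at least 12.67 on every other array. The averaged difference in 18S was -0.64 (exact permutation test within diets, two-sided, p = 0.11, adjusted 0.22 over 6 array measures). The 3′ control probe set of Gapdh was 0.10 higher with penicillin (exact p = 0.005, the smallest the 400 arrangements can give, adjusted 0.03). These are bulk tissue values, so fewer cells of a type and less RNA per cell cannot be told apart.

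Averaged over the diets, 20 of 13788 genes differed between penicillin and control mice at a Benjamini-Hochberg adjusted p under 0.05 in limma (0.145% of the genes tested), 14 higher (0.102%) and 6 lower (0.0435%). A gene that passed is called below. The 14 that rose include the calcineurin regulator Rcan2, the lipid droplet proteins Cidec and Cidea, the fatty acid transporter Cd36, the monoacylglycerol acyltransferase Mogat1 and the organic anion transporters Slc22a27 and Slc22a29. The 6 that fell are the nuclear noncoding RNA Malat1, the elastase Cela1, the glycosyltransferase B3galnt1, and Cyp7b1, Slco1a1 and Hsd3b5, which are higher in male than in female mouse liver. Of the 20 genes, 15 changed by at least 1.5-fold and 7 by at least 2-fold, and the adjusted p ran from 9.955e-05 to 0.0460. In all, 1643 genes, these included, had an unadjusted p under 0.05, where 689.4 would by chance. The number called depended on single mice. It was 3 without control chow 1, 3 without control chow 2, 24 without control chow 3, 18 without penicillin chow 1, 4 without penicillin chow 2 and 7 without penicillin chow 3. It was 5, 4 and 2 without control high-fat 1, 2 and 3, and 10, 93 and 5 without penicillin high-fat 1, 2 and 3. Rcan2 and Slc22a27 passed in all 12 of these fits, and the other 18 genes all lost their calls without control high-fat 3.

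**Figure D1:**
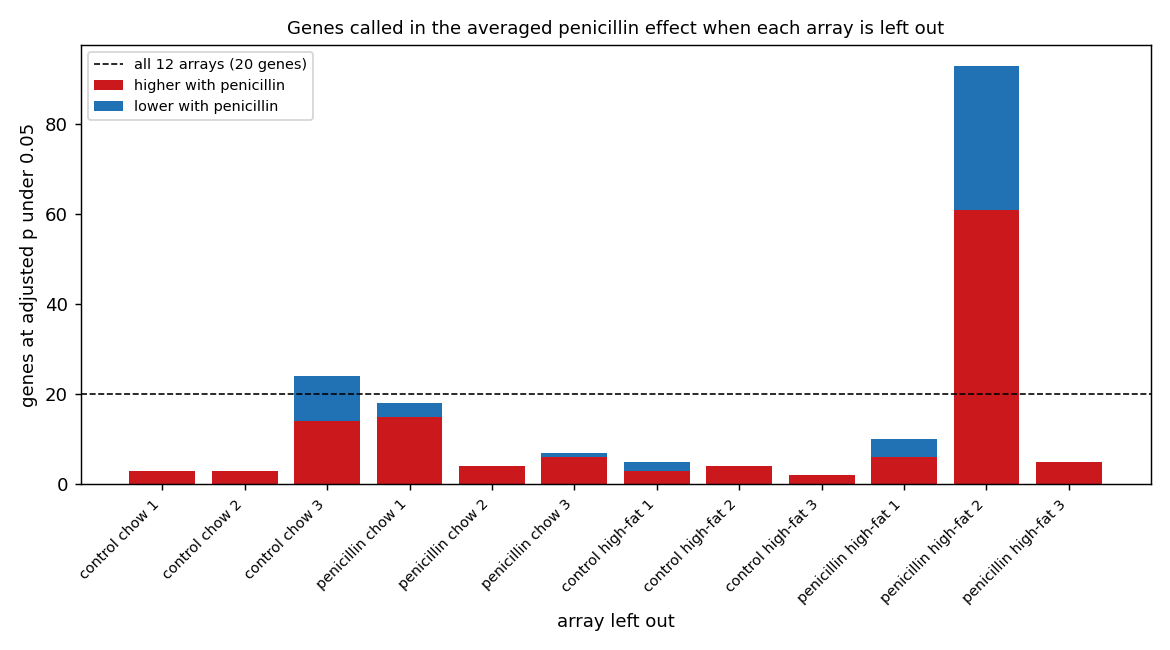
Number of genes called in the averaged penicillin effect (y axis, genes at an adjusted p under 0.05) when each array on the x axis was left out; red is higher and blue lower with penicillin, and the dashed line marks the 20 genes called with all 12 arrays. The count ran from 2 without control high-fat 3 to 93 without penicillin high-fat 2, which is among the arrays of low 18S signal.

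The count also moved with the model, the 18S signal and the scaling of the arrays. With an additive model of penicillin and diet 2 genes were called (Rcan2 and Malat1), and with the replicate number as a block 2 (Rcan2 and Slc22a27), so each of these fits ended 18 of the 20 calls. With the 18S signal as a covariate 179 genes were called (98 higher, 81 lower), 18 of the 20 among them. Without the 3 arrays of low 18S signal 416 were called (224 higher, 192 lower), 17 of the 20 among them, in a fit that rests on 1 penicillin chow mouse, assumed to vary like the other groups. With the arrays centred on their medians 15 were called, 13 higher and 2 lower.

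Rcan2 stood first among the genes tested by p. It encodes an inhibitor of calcineurin, the calcium-dependent phosphatase that lets NFAT transcription factors enter the nucleus. Rcan2 read 6.14, 6.03 and 6.11 without and 6.75, 7.02 and 7.05 with penicillin on chow, and 7.33, 7.07 and 6.97 without and 8.41, 8.40 and 8.42 with it on the high-fat diet. All penicillin mice lay above all control mice of their own diet, and the 3 penicillin high-fat mice were the highest of the 12. The averaged rise was 1.07 ± 0.07 (SE), 2.09-fold (limma, Benjamini-Hochberg adjusted p = 9.955e-05), made up of 0.85 ± 0.10 on chow and 1.29 ± 0.10 on the high-fat diet. Rcan2 was called on each diet alone, and it was the 1 gene called on chow (0.00725% of the genes tested). The averaged value stayed between 1.03 and 1.12 when any mouse was left out, was 1.07 with 18S as a covariate and 0.97 without the 3 arrays of low 18S signal. A second, dim probe set for Rcan2 (mean level 4.55, below the filter level) differed by 0.16.

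RefSeq lists 3 transcription start windows for Rcan2 in GRCm38.p6, each 250 bases upstream to 50 bases downstream of a start. They are printed because Rcan2 led the comparison and because its sister gene Rcan1 is known for a promoter that responds to NFAT, whose core motif is GGAAAA. The windows are chr17:43801102-43801401, chr17:43801601-43801900 and chr17:43952749-43953048, all on the + strand, and the third starts 151647 bases downstream of the first. Capitals mark the motif on either strand.
Rcan2 window 1: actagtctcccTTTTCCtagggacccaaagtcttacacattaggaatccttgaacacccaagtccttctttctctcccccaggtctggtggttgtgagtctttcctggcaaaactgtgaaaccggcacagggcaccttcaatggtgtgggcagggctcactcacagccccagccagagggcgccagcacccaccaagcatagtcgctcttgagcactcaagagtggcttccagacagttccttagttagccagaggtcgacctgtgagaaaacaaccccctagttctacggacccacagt
Rcan2 window 2: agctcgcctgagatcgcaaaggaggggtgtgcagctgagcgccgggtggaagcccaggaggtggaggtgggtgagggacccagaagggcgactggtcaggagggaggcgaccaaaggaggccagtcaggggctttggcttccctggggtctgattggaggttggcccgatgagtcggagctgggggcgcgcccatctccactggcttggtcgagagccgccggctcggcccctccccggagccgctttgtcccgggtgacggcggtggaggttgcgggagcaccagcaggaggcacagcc
Rcan2 window 3: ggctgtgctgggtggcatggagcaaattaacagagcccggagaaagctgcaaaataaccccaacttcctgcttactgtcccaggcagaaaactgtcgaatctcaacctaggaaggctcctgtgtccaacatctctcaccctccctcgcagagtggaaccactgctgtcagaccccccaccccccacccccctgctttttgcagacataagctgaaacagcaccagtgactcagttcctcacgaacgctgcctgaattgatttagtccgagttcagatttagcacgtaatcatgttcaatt
The first window holds 1 match, on the reverse strand as TTTTCC, and these letters are not in the other 2 windows. The motif is common: it occurs on either strand in 23.4% of all 32851 windows of this length, and in 5 of the 18 called genes that have a window, against 26.1% of all genes with one. A match is a description of the letters, and which start the probe set's RNA came from was not measured.

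The other members of the calcineurin list had smaller values. Of 14 members tested, 6 were above and 8 below 0, 1 (Rcan2) was called, and the median was -0.01, against a median of -0.0041 over all genes tested. Among all genes tested 48.4% were above 0 and 0.145% were called. Rcan1 (regulator of calcineurin, a sister gene of Rcan2) read 8.46, 8.69 and 8.30 without and 9.57, 8.36 and 8.74 with penicillin on chow, and 8.94, 8.86 and 8.89 without and 9.16, 9.77 and 9.37 with it on the high-fat diet. The penicillin mice overlapped the controls on chow and lay above them on the high-fat diet, and the averaged difference of 0.47 ± 0.18 (SE) was not called (limma, Benjamini-Hochberg adjusted p = 0.325). The catalytic subunits Ppp3cc and Ppp3cb differed by -0.24 ± 0.09 (SE) and -0.13 ± 0.05 (SE), neither called, and the other probe sets of Ppp3cb gave values on both sides of 0. The 10 remaining members differed by -0.05 to 0.28.

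Of the 20 called genes, 9 had penicillin mice that did not overlap the control mice on either diet, in 1 direction: Rcan2, Cidec, Malat1, Wfdc2, Acyp2, Plekha1, Comtd1, B3galnt1 and Secisbp2l. The same held for 238 of the 13788 genes tested (1.73%), 108 higher (0.783%) and 130 lower (0.943%). Leaving out 1 mouse brought that number to between 281 and 486, since fewer mice then have to be separated. Genes of this kind are chosen by separation, so the count describes them and tests nothing.

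Malat1, a long noncoding RNA kept in the nucleus, had nearly the same difference on both diets. Malat1 read 10.86, 10.73 and 10.56 without and 10.21, 10.01 and 9.99 with penicillin on chow, and 10.19, 10.59 and 10.50 without and 9.97, 9.67 and 9.79 with it on the high-fat diet. On each diet the 3 penicillin mice were below the 3 controls. It fell by 0.63 ± 0.09 (SE) on average, 1.55-fold lower (limma, Benjamini-Hochberg adjusted p = 0.0248), with -0.65 ± 0.12 on chow and -0.62 ± 0.12 on the high-fat diet. Its 6 other probe sets also had negative values, from -0.54 to -0.23. Of the 8 nuclear noncoding RNAs tested, 7 had negative values, with a median of -0.29, and Malat1 was the 1 called. Among all 13788 genes tested 7115 were below 0 and 0.0435% were called lower. Neat1, the scaffold RNA of nuclear paraspeckles, differed by -0.98 ± 0.30 (SE) and was not called (Benjamini-Hochberg adjusted p = 0.229), with penicillin chow mice at 9.24, 9.80 and 8.89 against 10.72, 10.86 and 10.77 in their controls and overlapping values on the high-fat diet. A second Neat1 probe set (mean level 7.26) went the other way, at 0.29, with 0.28 on chow and 0.30 on the high-fat diet, so the probe sets disagree on the direction.

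Wfdc2 encodes a secreted protein of the whey acidic protein family of protease inhibitors. Wfdc2 read 6.98, 7.37 and 7.49 without and 7.78, 7.87 and 7.93 with penicillin on chow, and 8.63, 8.81 and 8.18 without and 10.46, 9.61 and 10.27 with it on the high-fat diet. Penicillin mice were the higher ones on each diet, and the rise was 1.08 ± 0.15 (SE), 2.11-fold (limma, Benjamini-Hochberg adjusted p = 0.0314). Acyp2, an acylphosphatase, moved in the same way. Acyp2 read 7.14, 6.99 and 7.26 without and 7.38, 7.62 and 7.69 with penicillin on chow, and 7.47, 7.63 and 7.21 without and 8.98, 8.22 and 8.85 with it on the high-fat diet. Its rise was 0.84 ± 0.13 (SE), 1.79-fold (Benjamini-Hochberg adjusted p = 0.037), with 0.44 ± 0.18 on chow and 1.25 ± 0.18 on the high-fat diet. A further 3 smaller rises had the same separation on both diets. Plekha1, a phosphoinositide-binding adaptor, rose by 0.50 ± 0.08 (SE), Comtd1, a protein with a methyltransferase domain, by 0.54 ± 0.09 (SE), and Secisbp2l, a relative of the selenoprotein mRNA-binding protein, by 0.31 ± 0.05 (SE), the smallest change among the 20. A second probe set of Secisbp2l, at a mean level of 5.95, differed by 0.05.

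Cidec encodes a protein that fuses lipid droplets into larger ones. Cidec read 4.73, 4.83 and 4.80 without and 7.04, 5.22 and 5.51 with penicillin on chow, and 5.17, 5.78 and 5.70 without and 8.66, 7.93 and 8.94 with it on the high-fat diet. On chow, penicillin chow 1 stood well above the other penicillin mice, and on the high-fat diet all 3 penicillin mice were at 7.93 or more. Cidec rose by 2.05 ± 0.28 (SE), 4.14-fold, the largest rise of the 20 (limma, Benjamini-Hochberg adjusted p = 0.0248). The control chow values lie below the filter level, where fold changes are compressed. B3galnt1, the transferase that makes globoside glycolipids, was 1 of 2 called genes whose difference was larger on chow, with Malat1. B3galnt1 read 5.31, 5.02 and 4.67 without and 3.95, 4.14 and 4.03 with penicillin on chow, and 5.44, 5.42 and 5.28 without and 5.12, 5.27 and 4.89 with it on the high-fat diet. It fell by 0.62 ± 0.10 (SE) on average (Benjamini-Hochberg adjusted p = 0.046), and its penicillin chow values lie below the filter level.

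**Figure D2:**
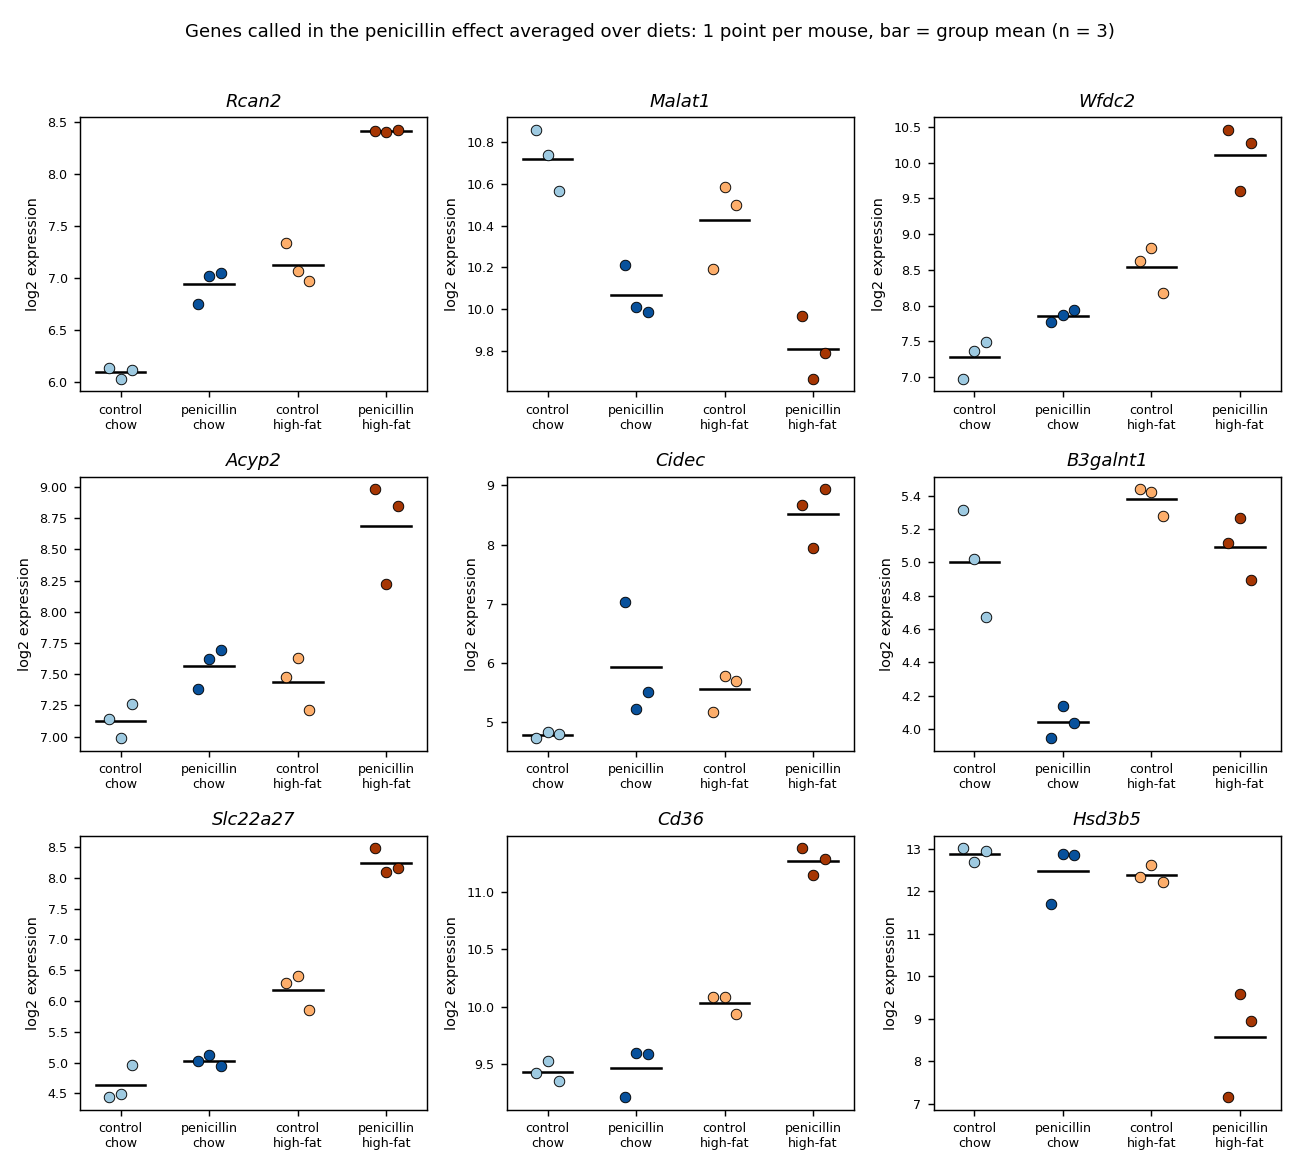
Log2 expression (y axes, each with its own range) of 9 called genes in the 4 groups (x axes); each point is 1 mouse and each bar a group mean of 3. Rcan2, Malat1, Wfdc2, Acyp2, Cidec and B3galnt1 separate penicillin from control mice on both diets, while Slc22a27, Cd36 and Hsd3b5 separate them on the high-fat diet and overlap on chow.

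The averaged calls rest mainly on the high-fat diet. All 20 called genes separated penicillin from control mice there (against 17.3% of genes tested), 18 had the larger difference there, and 18 were also called on that diet alone, where 47 genes were called (0.341%), 35 higher (0.254%) and 12 lower (0.087%). On chow 9 of the 20 were separated (11.8% of genes tested). The 20 were chosen by a small p in these same arrays, which favours separated genes. Their shares beside those of all genes describe them and test nothing. The sign was the same on both diets for 19 of the 20. Cidea was the exception, with -0.10 ± 0.38 on chow and 3.70 ± 0.38 on the high-fat diet. The interaction test asks whether the penicillin effect differs between the diets. It passed for 6 genes (0.0435%), 5 with the more positive effect on the high-fat diet (0.0363%) and 1 with the reverse (0.00725%), 3 of them among the 20: Slc22a27 (Benjamini-Hochberg adjusted p = 0.0418), Cd36 (0.0323) and Cidea (0.0389). For the other 17 a difference between the diets was not shown, with adjusted p from 0.11 upwards. The high-fat count was 22, 24 and 24 without control high-fat 1, 2 and 3, 21, 113 and 30 without penicillin high-fat 1, 2 and 3, and 95 without penicillin chow 1. The interaction count was 10 without control chow 3 and 3 without penicillin chow 1 or 2. It was 1 when high-fat mice 1 or 3 of the controls or mouse 3 of the penicillin group were dropped. It was 0 on dropping the second control on chow, the third penicillin mouse on chow or the first penicillin mouse on the high-fat diet. Rcan2's call on chow was kept without penicillin chow 1 (2 genes called), control high-fat 1 or control high-fat 3 (1 gene each). It was lost on leaving out any of the other 9 mice, with 4 genes called without control chow 3 and 0 in the other 8 fits.

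**Figure D3:**
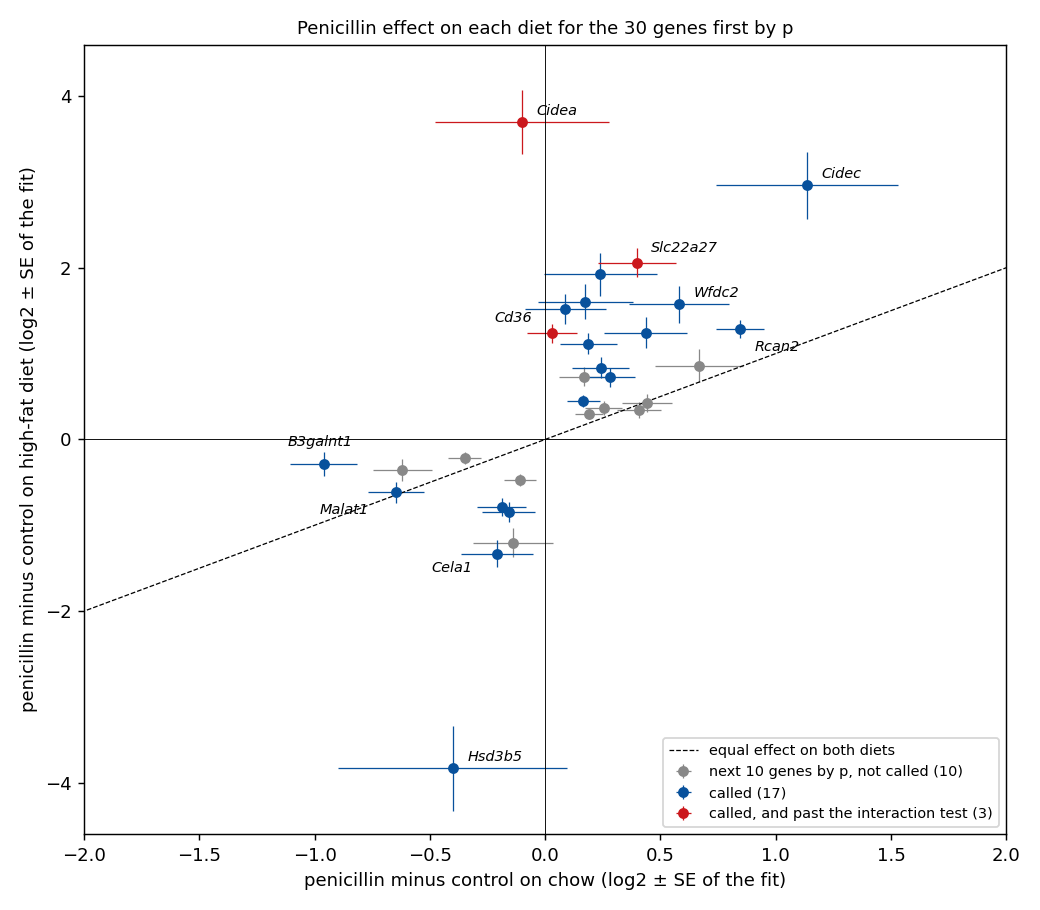
Penicillin minus control difference on chow (x axis, log2) against the same difference on the high-fat diet (y axis, log2) for the 30 genes first by p, with standard errors of the fit as bars and a dashed line where both are equal. Of the 20 called genes, 18 lie farther from 0 on the high-fat axis, and the 3 in red (Slc22a27, Cd36 and Cidea) also passed the interaction test.

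The proteins of lipid uptake and storage among the called genes are Cd36, Mogat1, Cidec and Cidea. Cd36 takes up long-chain fatty acids. Cd36 read 9.43, 9.52 and 9.36 without and 9.21, 9.60 and 9.59 with penicillin on chow, and 10.09, 10.09 and 9.93 without and 11.38, 11.15 and 11.29 with it on the high-fat diet. The chow groups overlapped, and the penicillin high-fat mice were all above their controls. Its averaged rise of 0.63 ± 0.08 (SE) (Benjamini-Hochberg adjusted p = 0.0160) is the mean of 0.03 ± 0.11 on chow and 1.24 ± 0.11 on the high-fat diet, and its 2 other probe sets gave 0.66 and 0.95. On chow these 2 probe sets differed by 0.07 and 0.39, so the size of the chow difference depends on the probe set. Cidea, a partner of Cidec in droplet fusion, differed most between the diets among the 20. Cidea read 4.48, 5.22 and 5.18 without and 4.42, 5.13 and 5.03 with penicillin on chow, and 5.57, 5.59 and 5.41 without and 9.73, 8.14 and 9.79 with it on the high-fat diet. Its averaged rise of 1.80 ± 0.27 (SE) (Benjamini-Hochberg adjusted p = 0.0361) comes from the high-fat diet, and on chow its values lie near the filter level. Mogat1, which joins a fatty acid to a monoacylglycerol, rose by 0.89 ± 0.15 (SE) (Benjamini-Hochberg adjusted p = 0.0460), with 0.17 ± 0.21 on chow and 1.60 ± 0.21 on the high-fat diet. Across the list of lipid droplet proteins and PPAR gamma targets, 16 of 24 members tested were above 0 and 8 below, 4 were called, all higher, and the median was 0.07, with -0.03 on chow and 0.24 on the high-fat diet. Among all genes tested 48.4% were above 0 and 0.102% were called higher. The list was chosen with earlier results of these data known, so its counts describe it and test nothing. Of 9 adipocyte markers on the array, 7 had mean levels above the filter level, among them Lpl (9.19) and Fabp4 (8.87). The fat-cell hormones Adipoq and Lep were below it on every array. Of the 7 tested, 5 were above 0 and 2 below, and Cidec was the 1 called.

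The transporters Slc22a27 and Slc22a29 belong to a family of organic anion carriers that female mouse liver expresses more than male. Slc22a27 read 4.43, 4.49 and 4.96 without and 5.02, 5.13 and 4.94 with penicillin on chow, and 6.29, 6.41 and 5.85 without and 8.48, 8.09 and 8.16 with it on the high-fat diet. The groups overlapped on chow and lay well apart on the high-fat diet. Slc22a27 rose by 1.23 ± 0.12 (SE), 2.34-fold (limma, Benjamini-Hochberg adjusted p = 0.00241), with 0.40 ± 0.17 on chow and 2.06 ± 0.17 on the high-fat diet. Slc22a29 rose by 1.08 ± 0.17 (SE) (Benjamini-Hochberg adjusted p = 0.0460), with 0.24 ± 0.25 on chow and 1.92 ± 0.25 on the high-fat diet. Both probe sets carry the array's mark for probes that can bind several transcripts, so members of the family may share signal. Of the female-biased list, 14 of 20 members were above 0, 2 were called (these transporters), and the median was 0.17, with 0.01 on chow and 0.22 on the high-fat diet. Among all genes tested 48.4% were above 0 and 0.102% were called higher. This list too was chosen with earlier results of these data known.

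Hsd3b5, a hydroxysteroid dehydrogenase made mainly in male mouse liver, had the largest fall. Hsd3b5 read 13.01, 12.68 and 12.96 without and 11.70, 12.88 and 12.87 with penicillin on chow, and 12.33, 12.63 and 12.22 without and 7.15, 9.57 and 8.96 with it on the high-fat diet. The penicillin high-fat mice lay far below all others and far apart from each other, and on chow penicillin chow 1 was the low one. Hsd3b5 fell by 2.12 ± 0.35 (SE), 4.34-fold lower (limma, Benjamini-Hochberg adjusted p = 0.0460), with -0.40 ± 0.50 on chow and -3.83 ± 0.50 on the high-fat diet. Cyp7b1, an oxysterol hydroxylase of the alternative route to bile acids, fell by 0.49 ± 0.08 (SE), and Slco1a1, a bile salt and organic anion uptake carrier, fell by 0.50 ± 0.08 (SE). Each had penicillin high-fat mice below all controls and overlapping groups on chow. Of 18 male-biased genes tested, 13 were below 0 and 5 above, 3 were called, all lower, and the median was -0.14, with -0.10 on chow and -0.39 on the high-fat diet. The list of bile acid synthesis and transport holds Cyp7b1 and Slco1a1 too: 18 of its 24 members were below 0, those 2 were called, and the median was -0.05. Among all 13788 genes tested 7115 were below 0 and 0.0435% were called lower. Both lists were chosen with earlier results of these data known, so their counts describe them and test nothing.

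Another 3 called genes stand outside these lists or apart from the rest of their list. Gas6, the ligand of the Tyro3, Axl and Mertk receptors, rose by 0.65 ± 0.09 (SE) (Benjamini-Hochberg adjusted p = 0.0248), with 0.19 ± 0.12 on chow and 1.11 ± 0.12 on the high-fat diet, and its second probe set, at a mean level of 5.54, differed by -0.03. Anxa2, a calcium-dependent phospholipid-binding protein, rose by 0.80 ± 0.12 (SE) (Benjamini-Hochberg adjusted p = 0.0370), with 0.09 ± 0.17 on chow and 1.52 ± 0.17 on the high-fat diet. Cela1, an elastase known best from the pancreas, fell. Cela1 read 10.44, 10.08 and 10.06 without and 9.97, 9.81 and 10.18 with penicillin on chow, and 10.82, 10.61 and 10.77 without and 9.05, 9.63 and 9.53 with it on the high-fat diet. The penicillin high-fat mice were below their controls and the chow groups overlapped, and the fall was 0.77 ± 0.11 (SE) (Benjamini-Hochberg adjusted p = 0.0314). Of the 7 pancreatic acinar markers tested 2 were above and 5 below 0, and Cela1 was the 1 called. Among all genes tested 0.0435% were called lower. Of the 9 on the array, 7 had mean levels above the filter level, and Cpb1 lay below it on every array.

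The 10 genes next by p missed the threshold, with adjusted p from 0.0582 to 0.0743, and 8 of them separated penicillin from control mice on both diets. Over all genes tested 1.73% did, and a choice by p favours separated genes. They are Sorbs3, Abcb1a, Pgam1, Tpm2, Tbc1d12, Zkscan1, Tsga10, C8b, Arap2 and Nuak2. Tpm2, a tropomyosin, had the largest value among them. Tpm2 read 8.07, 7.85 and 8.65 without and 8.94, 8.83 and 8.81 with penicillin on chow, and 9.11, 9.30 and 9.01 without and 9.81, 9.84 and 10.36 with it on the high-fat diet. No penicillin mouse overlapped a control of its diet, and the difference was 0.76 ± 0.14 (SE), with 0.67 ± 0.19 on chow and 0.86 ± 0.19 on the high-fat diet. Abcb1a, the drug efflux pump P-glycoprotein, differed by 0.45 ± 0.08 (SE) and Nuak2, a kinase related to AMP-activated kinase, by -0.49 ± 0.09 (SE). For Zkscan1, a zinc finger protein at -0.28 ± 0.05 (SE), the other probe sets gave values from -0.11 to 0.10.

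No gene of the NRF2 list was called, yet its members lay on 1 side. NRF2 is the transcription factor that raises detoxifying and antioxidant enzymes. The list, labelled NRF2 targets in the figures, names its targets and also Nfe2l2, the gene of NRF2, and its inhibitor Keap1. Of its 20 members tested 20 had values above 0, where 48.4% of all genes tested did. The list was chosen with earlier results of these data known, so this count describes it and tests nothing. The median was 0.37, with 0.11 on chow and 0.53 on the high-fat diet. On both diets 17 members were above 0, as were 3765 of the 13788 genes tested. An unadjusted p under 0.05 in limma was reached by 15, and by 1643 of the 13788. Ugdh (UDP-glucose dehydrogenase) read 11.82, 11.58 and 12.03 without and 12.22, 12.24 and 11.96 with penicillin on chow, and 11.24, 11.43 and 10.87 without and 12.07, 11.91 and 11.96 with it on the high-fat diet. All penicillin high-fat mice were above their controls, and on chow 1 penicillin mouse lay below the highest control. The averaged difference was 0.56 ± 0.10 (SE) (Benjamini-Hochberg adjusted p = 0.0743). Nqo1, a quinone reductase, differed by 0.46 ± 0.09 (SE), the glutathione transferase Gstm3 by 0.68 ± 0.14 (SE) and the epoxide hydrolase Ephx1 by 0.59 ± 0.14 (SE). Mean levels of the list, relative to the mean of the 12 arrays, were -0.06, -0.20 and 0.12 without and 0.17, 0.17 and -0.0021 with penicillin on chow, and -0.19, -0.29 and -0.51 without and 0.38, 0.06 and 0.35 with it on the high-fat diet. The groups overlapped on chow and did not on the high-fat diet. With 18S as a covariate 5 members were called and the median was 0.42. The median was 0.45 without the 3 arrays of low 18S signal, with penicillin chow 1 alone in its group.

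NRF2 binds DNA at a core motif TGACNNNGC, searched on both strands of the start windows. The window of Ugdh, first of the list by p, is printed with the motif in capitals. It lies at chr5:65435793-65436092 on the - strand in GRCm38.p6, per RefSeq.
Ugdh: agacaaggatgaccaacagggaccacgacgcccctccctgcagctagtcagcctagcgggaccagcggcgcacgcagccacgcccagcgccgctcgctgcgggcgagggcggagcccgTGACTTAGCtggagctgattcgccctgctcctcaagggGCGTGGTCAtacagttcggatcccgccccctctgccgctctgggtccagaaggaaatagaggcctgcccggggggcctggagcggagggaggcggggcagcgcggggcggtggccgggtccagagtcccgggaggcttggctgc
It holds 2 matches. A match occurs in 6 of the 15 tested members of the list with a window, in 3 of 18 called genes, in 12.4% of all windows and in 14.0% of all genes with one.

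**Figure D4:**
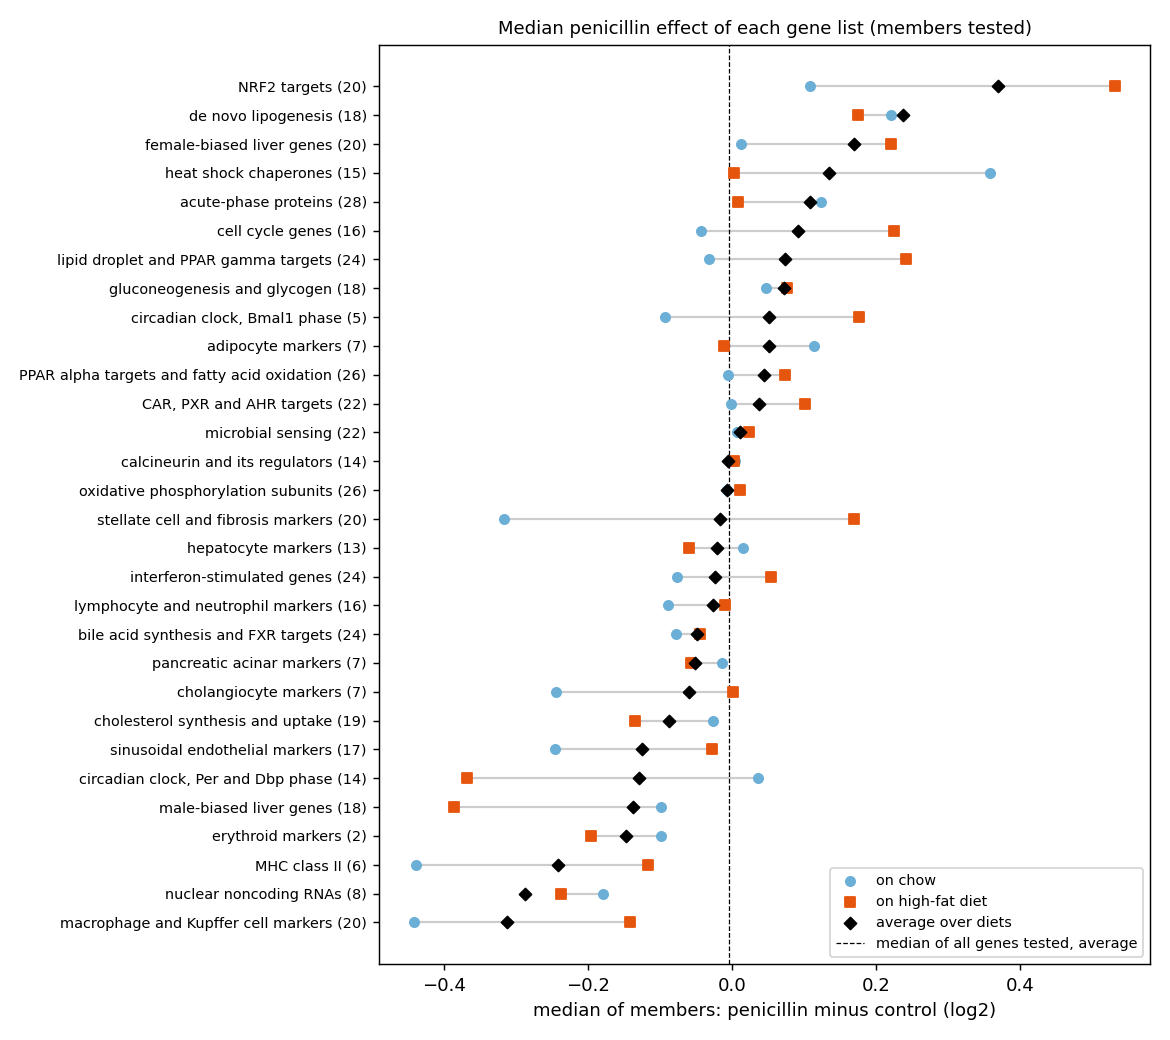
Median penicillin minus control difference (x axis, log2) of the members of 30 gene lists (y axis, members tested in brackets) on chow, on the high-fat diet and averaged, with the median of all genes tested as a dashed line. The NRF2 targets have the highest averaged median (0.37) and the macrophage markers the lowest (-0.31).

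Macrophage and Kupffer cell markers had the reverse pattern. Of 20 members tested 20 were below 0 and none was called, 14 with an unadjusted p under 0.05 in limma. Of the 13788 genes tested 7115 were below 0 and 1643 had such a p. The median of the list was -0.31, with -0.44 on chow and -0.14 on the high-fat diet. On both diets 18 were below 0, as were 4095 of all genes tested. Clec4f (a lectin made by Kupffer cells) read 9.82, 9.83 and 9.90 without and 9.75, 9.45 and 9.27 with penicillin on chow, and 10.47, 10.46 and 10.35 without and 10.29, 10.28 and 9.84 with it on the high-fat diet. The penicillin mice lay below their controls on each diet, with a difference of -0.33 ± 0.09 (SE) (Benjamini-Hochberg adjusted p = 0.212). Clec4f was the 1 marker of the 20 separated on both diets (0.943% of all genes tested were lower in this way). Aif1 differed by -0.39 ± 0.10 (SE), the pore-forming Mpeg1 by -0.34 ± 0.10 (SE) and the mannose receptor Mrc1 by -0.28 ± 0.08 (SE), and the mice of these 3 overlapped on the high-fat diet. The low values came with the arrays of low 18S signal on chow: the mean level of the list was -0.55 and -0.75 in penicillin chow 2 and 3, -0.20 in penicillin chow 1 and -0.13 to -0.0023 in control chow mice. On the high-fat diet it was 0.45, 0.30 and -0.12 with penicillin and 0.34 to 0.38 without, and there the low value of -0.12 was in penicillin high-fat 3, whose 18S signal of 13.17 was not low, while penicillin high-fat 2, of low 18S signal, was at 0.30. Without the 3 arrays of low 18S signal the median was -0.15. The part of the 18S signal in this result was not tested further.

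Other non-parenchymal markers had negative values mostly on chow. Of 17 sinusoidal endothelial markers 16 were below 0 and none called, 5 with an unadjusted p under 0.05. Of the 13788 genes tested 7115 were below 0 and 1643 had such a p. The endothelial median was -0.12 (-0.25 on chow, -0.03 on the high-fat diet, and -0.11 averaged without the 3 arrays of low 18S signal). The scavenger receptor Stab2 differed by -0.25 ± 0.08 (SE) and Clec14a by -0.37 ± 0.09 (SE), for which a second probe set (mean level 5.76) gave -0.06, with 0.25 on the high-fat diet. All 6 MHC class II genes tested were below 0, 3 with an unadjusted p under 0.05, with a median of -0.24, and H2-Aa differed by -0.30 ± 0.13 (SE). The medians of the stellate cell markers were -0.32 on chow and 0.17 on the high-fat diet. Hepatocyte markers had a median of -0.02, with 5 above and 8 below 0.

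**Figure D5:**
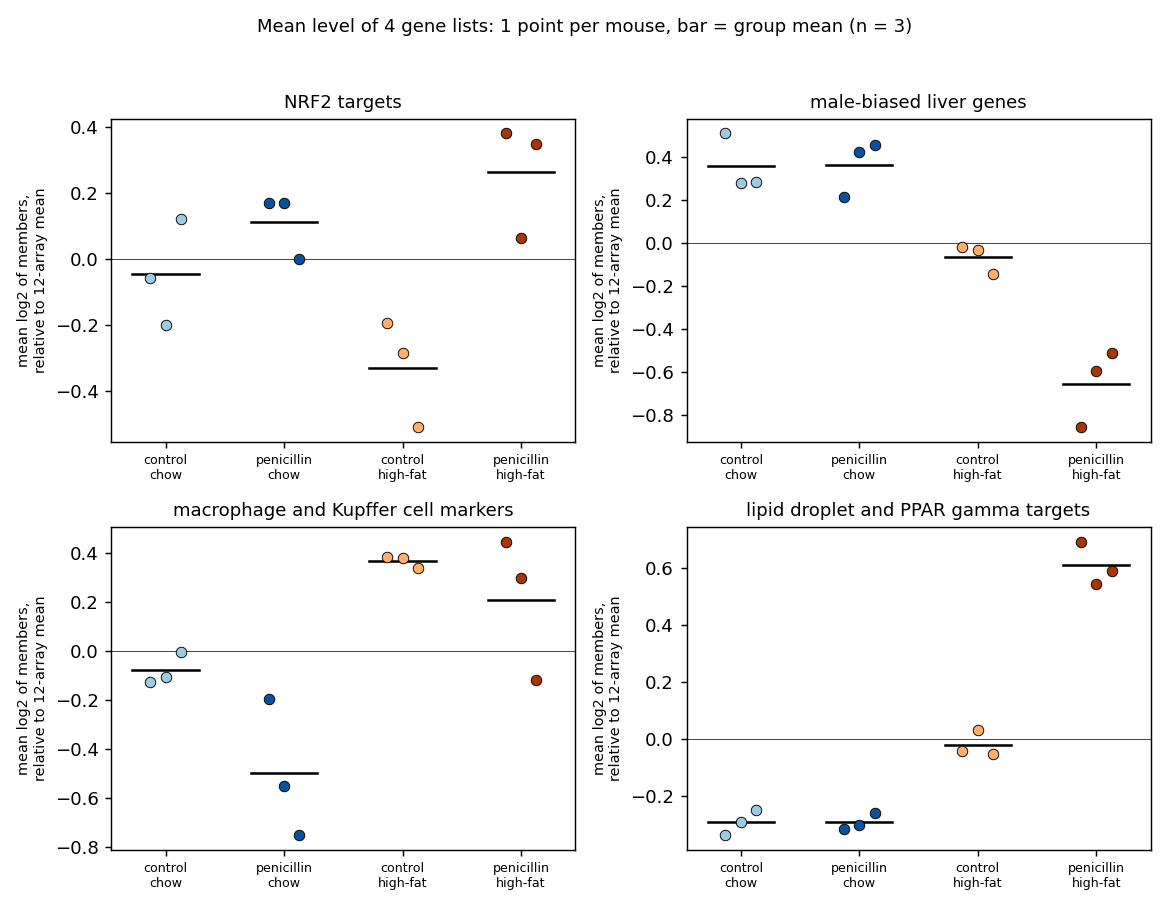
Mean log2 level of the members of 4 gene lists, relative to the 12-array mean (y axes), in the 4 groups (x axes); each point is 1 mouse and each bar a group mean of 3. NRF2 targets and male-biased genes separate penicillin from control mice on the high-fat diet, and penicillin chow 2 and 3 are the lowest mice for macrophage markers.

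De novo lipogenesis, the making of fatty acids from sugar, had 15 of 18 members above 0, 13 on both diets, none called and 6 with an unadjusted p under 0.05. Of the 13788 genes tested 6673 were above 0, 3765 on both diets, and 1643 had such a p. The median of the list was 0.24, with 0.22 on chow and 0.17 on the high-fat diet. Acly (ATP citrate lyase, which supplies the acetyl-CoA) read 11.69, 11.66 and 11.24 without and 12.13, 12.15 and 11.88 with penicillin on chow, and 11.90, 12.25 and 11.59 without and 12.47, 12.92 and 12.03 with it on the high-fat diet. The groups did not overlap on chow and did on the high-fat diet, and the difference was 0.54 ± 0.16 (SE) (Benjamini-Hochberg adjusted p = 0.205). Acetyl-CoA carboxylase Acaca differed by 0.35 ± 0.10 (SE) (0.10 by a second, dimmer probe set), malic enzyme Me1 by 0.58 ± 0.17 (SE) and fatty acid synthase Fasn by 0.58 ± 0.22 (SE). Without the 3 arrays of low 18S signal the median of the list was 0.05. Cholesterol synthesis and uptake leaned the other way, with 14 of 19 members below 0, none called, 0 with an unadjusted p under 0.05, and a median of -0.09.

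The lists of microbial sensing, interferon-stimulated genes and drug receptor targets had medians near that of all genes tested. Microbial sensing had 13 of 22 members above 0 and a median of 0.01, interferon-stimulated genes 11 of 24 and -0.02, and the targets of the drug receptors CAR, PXR and AHR 14 of 22 and 0.04, with none called in any of the 3 (2, 3 and 5 members with an unadjusted p under 0.05, against 1643 of the 13788 genes). Of the 22 drug receptor targets 3 were lower with penicillin without overlap on both diets, where 0.943% of all genes tested were. These were Cyp2c37, Cyp2c50 and Cyp2c54, which metabolise drugs and fatty acids, at -0.29 ± 0.07 (SE), -0.21 ± 0.07 (SE) and -0.87 ± 0.23 (SE). Acute-phase proteins had a median of 0.11 with 21 of 28 above 0, none called and 1 with an unadjusted p under 0.05, and their mean level was 1.23 in penicillin chow 1 against -0.36 to 0.34 on the other arrays. Heat shock chaperones had 13 of 15 above 0, none called and 2 with an unadjusted p under 0.05, with a median of 0.36 on chow and 0.0027 on the high-fat diet. Hspb1, a small heat shock protein, was highest in the same mouse, at 12.43, and differed by 0.69 ± 0.22 (SE) on average. Fatty acid oxidation, gluconeogenesis, oxidative phosphorylation and cell cycle lists had medians of 0.04, 0.07, -0.01 and 0.09. Above 0 were 20 of 26, 14 of 18, 12 of 26 and 13 of 16 members, against 48.4% of all genes tested. None was called, and 7, 4, 1 and 3 members had an unadjusted p under 0.05.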

How the data were processed

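Liver RNA of 12 mice was hybridised to Affymetrix 3′ arrays, and the authors deposited log2 values for 45101 probe sets. Per the submitters' processing notes these come from RMA and affy (versions: not given in the sources used here). Arrays are scaled to each other in RMA, so differences are relative to the bulk of genes, although the deposited arrays did not share 1 distribution (medians from 5.52 to 5.59), and dim values cannot be told from background. GEO's platform annotation supplied gene names (34945 with 1 symbol, 932 with several and 9160 with none, 64 of the array being controls), with 34741 matched to the GRCm38.p6 gene table. Of several probe sets of a gene, the brightest on average stood for it (18193 genes). The 13788 genes above the 40th percentile (log2 5.0) on at least 3 arrays were tested with limma 3.58.1 in R 4.3.3, as 4 group means with 8 residual degrees of freedom, eBayes and Benjamini-Hochberg adjustment over all of them at 0.05.

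The labels call the mice biological replicates, and p-values measure the spread between them. Arrays have no read depth, and precision is limited by their number: standard errors had a median of 0.07 for the average and 0.10 within a diet, and within-group SDs had a median of 0.13. The named genes are those called, the next by p up to 30, the 4 members of each list with the smallest p and the calcineurin members. The text gives some lists by counts alone. Members and lists were chosen with earlier results of these data known. The fit was tested on simulated data. Alternatives changed the filter, the choice of probe set, the scaling, the weights, the model, the threshold, the replicate block and each mouse. The fits with the 18S signal, without the 3 arrays of low 18S signal and without 2 arrays that stood apart were chosen after seeing the data. Promoter windows are RefSeq's, 250 bases before to 50 after a start.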

Additional observations from a re-analysis of the deposited data

Results flagged for a closer look

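For 5 of the named genes the penicillin effect differed between the diets in the interaction test of limma (high-fat minus chow difference, adjusted by Benjamini-Hochberg over 13788 genes). The difference was 1.66 for Slc22a27 (adjusted p = 0.0418), 1.21 for Cd36 (0.0323) and 3.80 for Cidea (0.0389), each higher with penicillin on the high-fat diet, where the penicillin mice did not overlap their controls. For Cidea and Slc22a27 the chow values lie near the filter level, where changes are compressed.

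The other 2 were not called in the averaged effect and had opposite signs on the diets. The difference was 2.06 for Hao2, a peroxisomal hydroxy acid oxidase (adjusted p = 0.0114). Hao2 read 4.86, 4.91 and 5.09 in control chow and 4.64, 4.25 and 4.46 in penicillin chow mice, near the filter level, and 5.89, 6.08 and 6.53 in control high-fat and 7.74, 7.85 and 7.58 in penicillin high-fat mice. The difference was 0.97 for Ifi27l2a, an interferon-induced gene (adjusted p = 0.0323). Ifi27l2a read 7.53, 7.67 and 7.73 in control chow and 6.93, 7.02 and 6.94 in penicillin chow mice, and 7.84, 7.95 and 7.71 in control high-fat and 8.25, 8.13 and 7.99 in penicillin high-fat mice. In both genes the penicillin mice lay below their controls on chow and above them on the high-fat diet.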

How the results depend on the processing

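The averaged count of 20 genes was 13 with the probe set of largest variance, 108 with array weights, 2 with an additive model, 2 at an adjusted p under 0.01 and 65 under 0.10 (38 higher, 27 lower), 179 with 18S as a covariate and 416 without the 3 arrays of low 18S signal. It was 18 to 21 with no filter, a 60th percentile filter, the mean of probe sets, cyclic loess or robust eBayes, 15 with median centring and 16 without the 2 arrays that stood apart. The chow count of 1 was 0 with the mean of probe sets, the largest variance, median centring, a threshold of 0.01 or the 18S covariate, 2 at 0.10 and without the 2 arrays apart, and 251 without the 3 arrays of low 18S signal. The high-fat count of 47 was 183 with array weights, 19 at 0.01, 118 at 0.10, 89 with the 18S covariate, 148 without the 3 arrays of low 18S signal and 27 without the 2 apart. The interaction count of 6 was 15, 0 at 0.01, 1 with the covariate and 24 without the 3 arrays. The 238 separated genes became 1810 and 648 without those 3 and 2 arrays, since fewer mice have to be separated. The cause of the other shifts was not tested.

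Leaving out 1 mouse moved the averaged count between 2 and 93, the chow count between 0 and 4, the high-fat count between 21 and 113, the interaction count between 0 and 10 and the separated genes between 281 and 486. With the replicate number as a block the counts were 2 (Rcan2 and Slc22a27), 0 on chow, 35 on the high-fat diet and 2 for the interaction. Of 18 pairs of the same number 3 correlated above 0.1 (range -0.23 to 0.17). With 3 mice a group these correlations cannot decide whether the numbers mark something shared, such as a cage or litter. What the numbers mark was not tested.

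None of the 538 values of the 20 called genes under 27 settings changed sign. These genes were chosen by a small p in the same arrays, so their signs could hardly change, and the count tests nothing. Of the 2256 values of named genes 3 changed sign. Ppp3cb was 0.0111 with the mean of its probe sets and 0.17 with the one of largest variance, and Zkscan1 was 0.10 with that choice. Of the 750 list medians 738 moved by less than the spread between mice. That bar is wide, so a median could lose much of its value and still be among the 738. The medians of de novo lipogenesis and of macrophage markers, for example, shrank without the arrays of low ribosomal RNA signal. The count therefore does not show that the medians were stable. With 3 mice a group and signals near background on chow for Cidea, Cidec, Slc22a27 and Hao2, small differences there cannot be seen.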

Other observations

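Among the 229 genes that separated penicillin from control mice on both diets without being called in the averaged effect, the largest values were named after they were seen. Enho, which encodes the secreted peptide adropin, read 9.20, 9.72 and 8.85 in control chow mice, 8.26, 8.60 and 8.65 in penicillin chow mice, 8.84, 8.57 and 8.68 in control high-fat mice and 8.04, 6.98 and 6.75 in penicillin high-fat mice. Its averaged difference was -1.10 ± 0.21 (SE), with an adjusted p of 0.0743 in limma, and the 2 lowest mice were both penicillin high-fat. The mean over the probe sets of Enho gave -0.51. Higher with penicillin on both diets were Lhx6, a homeobox factor, at 0.68 ± 0.15, Gnai1, an inhibitory G protein subunit, at 0.60 ± 0.15, and Slc17a1, a urate and phosphate carrier of the liver and kidney, at 0.54 ± 0.12. Their adjusted p in limma was 0.117, 0.159 and 0.117. The median size of the difference over all 238 separated genes was 0.22.

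Clock genes of the Per and Dbp phase, which peak late in the day, had a mean level of -0.34 in control chow 3 against 0.23 and 0.26 in control chow 1 and 2, and of -0.62 in penicillin high-fat 1 against -0.01 and -0.03 in the other penicillin high-fat mice. The hour of collection was not used here.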
